A study of Oryctolagus cuniculus with 16 samples.

Results

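Prostaglandin synthases and receptors were described here as a group of 10 genes, chosen by name: the cyclooxygenases PTGS1 and PTGS2, the synthases PTGES, PTGIS and TBXAS1, the degrading enzyme HPGD, and the receptors PTGER2, PTGER3, PTGER4 and PTGIR. Of the 10 symbols, 9 were found among the 20255 genes of the count table, and all 9 passed the filter on low counts with 15305 genes in total. PTGIS was not listed under its symbol. Total RNA-seq after removal of ribosomal RNA was used to compare the femoral heads of 5 Perthes and 3 control rabbits.

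The Perthes group was a surgical model. It was made at 8 weeks of age by cutting off the blood supply of the femoral head, with the ligamentum teres divided and a permanent elastic ligature left around the neck of the femur. The labels give this state as a genotype, and the controls as wild type. Whether the controls were operated on, their age, and the time from surgery to sampling were not given in the sources used here. Each library held 26757087 to 29461482 estimated counts, so that 1 count was worth 0.0333 to 0.0374 CPM, the count relative to the library total scaled by its TMM factor.

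Prostanoids are short-lived lipid signals made from arachidonic acid. Cyclooxygenase 1 (PTGS1) is made steadily in many cells and cyclooxygenase 2 (PTGS2) after stimulation, and both give prostaglandin H, from which separate synthases make prostaglandin E, prostacyclin and thromboxane. In bone, prostaglandin E acts on cells that form and cells that resorb bone through receptors named EP, and prostacyclin acts on vessels and platelets through the receptor IP.

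By edgeR's quasi-likelihood test with Benjamini-Hochberg adjustment over all genes tested, PTGER2 and PTGER3 were lower in Perthes femoral heads, and the other 7 members were not called at an adjusted p of 0.05. The 2 of 9 members called stand beside 15.1% of all genes called in either direction. None of the 9 was called higher, beside 6.21% of all genes, and 2 were called lower, beside 8.86%. PTGS2 and PTGES had unadjusted p-values under 0.05 on the higher side, and DESeq2 called both. On the lower side 4 members had an unadjusted p under 0.05, TBXAS1 and PTGIR beside those called, and DESeq2 called PTGER2 and PTGER3 alone. Of all 15305 genes tested, 4883 had an unadjusted edgeR p under 0.05, and DESeq2 called 1720 higher and 1916 lower. The groups did not overlap for 1 member, PTGER2, beside 25.2% of all genes. The members' median log2 fold change was -0.64, beside 0.02 over all genes, and it was -0.32 without control rabbit 1 and -0.42 without Perthes rabbit 1. With 9 members, these counts say nothing particular of the group beside the whole table, in which 951 genes were called higher and 1356 lower (678 and 1705 with library totals alone as the scale). Calls across the table were fewer when a control was left out: without control rabbit 1 edgeR called 73 genes higher and 184 lower, and without control rabbit 2 it called 0, with 3722 at an unadjusted p under 0.05. The smallest edgeR adjusted p of any gene without control rabbit 2 was 0.0519. Every gene lost its call in that fit, so a loss given below for that fit is not particular to the gene named.

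**Figure D1:**
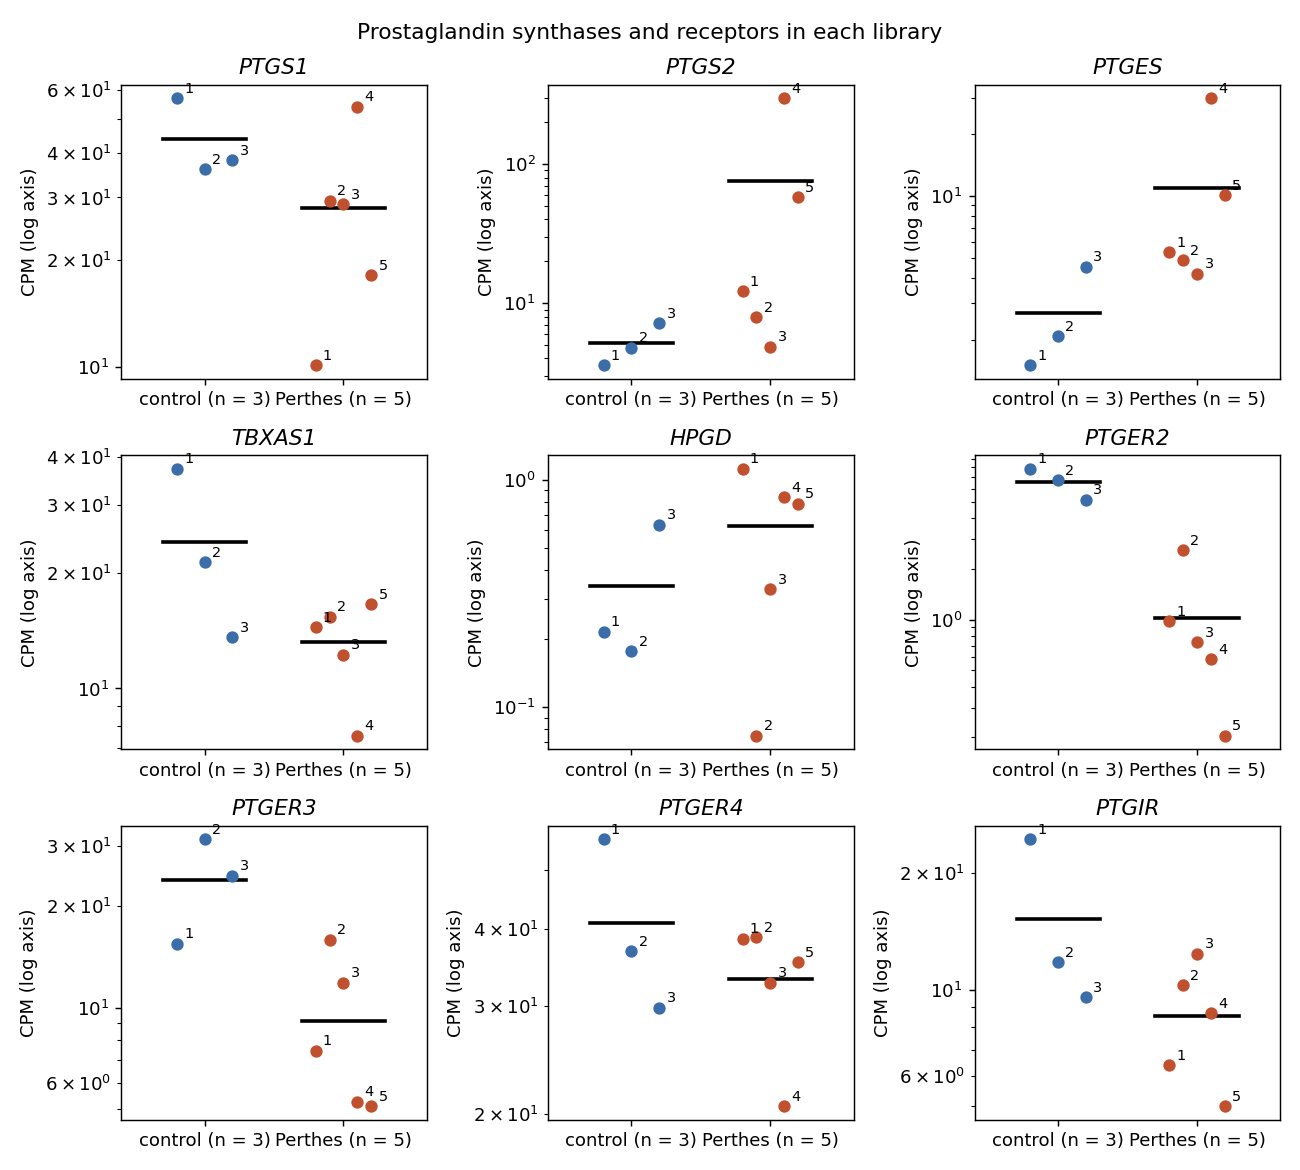
Level of the 9 members found, in CPM on a log axis, in 3 control and 5 Perthes libraries. Points are libraries, numbered by rabbit, and lines are group means. PTGER2 is the only panel in which the groups are apart, and PTGS2 and PTGES stand highest in Perthes rabbits 4 and 5.

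PTGS2 (gene 100009248) was the most uneven member. It stood at 12.2, 7.94, 4.85, 297 and 57.8 CPM in Perthes rabbits 1 to 5 and at 3.57, 4.80 and 7.18 CPM in control rabbits 1 to 3. In counts, Perthes rabbit 4 held 8165 and Perthes rabbit 5 held 1698, and the control libraries held 100, 136 and 216. Rabbits 4 and 5 were far above every control, rabbits 1 and 2 were closer to but above the highest control, and rabbit 3 lay within the control range. Perthes rabbit 4 alone carried 78.2% of the group's summed CPM. The coefficient of variation within the Perthes group, 165%, was higher than that of 99.7% of the genes tested. The log2 fold change was 3.87 (SE 1.45), with an edgeR adjusted p of 0.103 and an exact two-sided permutation p of 0.0714. DESeq2 gave an adjusted p of 0.0162, and over all alternatives the adjusted p ran from 0.0162 to 0.515. Without Perthes rabbit 4 the log2 fold change was 2.00 (edgeR adjusted p = 0.138), and without rabbits 4 and 5 it was 0.68 (edgeR adjusted p = 0.332).

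PTGES (gene 100342171), the inducible microsomal synthase that turns prostaglandin H into prostaglandin E, had the same ranking at its upper end. Its level was 5.34, 4.87, 4.19, 29.9 and 10.1 CPM in Perthes rabbits 1 to 5 and 1.50, 2.08 and 4.52 CPM in the controls. Rabbits 4 and 5 were again the highest, and Perthes rabbit 3 fell below control rabbit 3, so that the groups overlapped. The log2 fold change was 2.01 (SE 0.75), with an edgeR adjusted p of 0.103 and an exact permutation p of 0.0714. DESeq2 gave an adjusted p of 0.0161, at the low end of a range of 0.0161 to 0.310 over the alternatives. Without Perthes rabbit 4 the log2 fold change was 1.18 (edgeR adjusted p = 0.116), without rabbits 4 and 5 it was 0.82 (edgeR adjusted p = 0.274), and without control rabbit 3 it was 2.60 (edgeR adjusted p = 0.0939).

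Across the 8 libraries the log2 CPM of PTGS2 and PTGES had a Pearson r of 0.948, and 0.941 after the group means were removed. These points share the 2 groups and lean on Perthes rabbits 4 and 5, so the coefficient is a description only.

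PTGS1 (gene 100009407), the cyclooxygenase of resting cells, stood at 10.1, 29.4, 28.7, 54.0 and 18.2 CPM in Perthes rabbits and at 57.0, 36.0 and 38.2 CPM in controls. Of the Perthes rabbits, 4 of 5 were below every control, and rabbit 4 was inside the control range. The log2 fold change was -0.64 (SE 0.45, edgeR adjusted p = 0.357). Without Perthes rabbit 4 it was -1.02 (edgeR adjusted p = 0.0882), without control rabbit 1 it was -0.40, and without Perthes rabbit 1 it was -0.42. The adjusted p ran from 0.0882 to 0.666 over the alternatives.

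The ratio of PTGS2 to PTGS1 counts in the same library shows how far the 2 cyclooxygenases went apart. It was 1.21, 0.270, 0.169, 5.50 and 3.18 in Perthes rabbits 1 to 5 and 0.0627, 0.133 and 0.188 in the controls. The ratio is not corrected for gene length, so it can be compared between libraries and not read as a ratio of transcripts. It was above every control in Perthes rabbits 1, 2, 4 and 5 and inside the control range in Perthes rabbit 3.

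TBXAS1 (gene 100339354), which makes thromboxane and is well known from platelets and macrophages, was at 14.5, 15.4, 12.2, 7.53 and 16.5 CPM in Perthes rabbits and 37.3, 21.3 and 13.6 CPM in controls. Control rabbits 1 and 2 were above every Perthes rabbit, and control rabbit 3 was among them. The log2 fold change was -0.86 (SE 0.34, edgeR adjusted p = 0.118), and it was -0.40 (edgeR adjusted p = 0.467) without control rabbit 1.

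For prostacyclin synthase, the table has 2 entries under identifiers only, and they were looked up after the values of the other members had been seen. RefSeq's current rabbit gene table pairs gene 103346149 with the symbol PTGIS. That gene, LOC103346149 in the count table, was at 5.51, 20.3, 35.4, 18.0 and 10.8 CPM in Perthes rabbits and 13.0, 21.9 and 18.6 CPM in controls. Perthes libraries lay both above and below the controls, and the log2 fold change was 0.01 (SE 0.50, edgeR adjusted p = 0.988). LOC103352392, also described as prostacyclin synthase, had a log2 fold change of 0.03 (SE 0.54, edgeR adjusted p = 0.979). Both were lowest in Perthes rabbit 1 and highest in Perthes rabbit 3, and whether they are parts of the same gene was not tested.

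HPGD (gene 100348968) starts the breakdown of prostaglandins by oxidizing their hydroxyl group. It was scarce, with 33, 2, 9, 23 and 23 counts in Perthes rabbits and 6, 5 and 19 counts in controls. The counts of the groups overlapped widely, and the log2 fold change was 0.87 (SE 0.76, edgeR adjusted p = 0.463). It was 1.67 without control rabbit 3 (edgeR adjusted p = 0.258) and 0.56 without Perthes rabbit 1 (edgeR adjusted p = 0.660), and no fit that left out a rabbit called HPGD.

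PTGER2 (gene 100009369) encodes EP2, a prostaglandin E receptor that raises cyclic AMP. It was at 0.979, 2.58, 0.734, 0.582 and 0.204 CPM in Perthes rabbits 1 to 5, from 29, 69, 20, 16 and 6 counts. In control rabbits 1 to 3 it was at 7.86, 6.73 and 5.16 CPM, from 220, 191 and 155 counts. Every Perthes library was below every control library, with Perthes rabbit 2 the highest of its group. The control mean was 6.47 times the Perthes mean, and the log2 fold change was -2.69 (SE 0.61), with an edgeR adjusted p of 0.0223. The exact two-sided permutation p was 0.0357, the smallest that 5 against 3 rabbits can give. The fold change stayed between -3.39 and -2.42 when each rabbit was left out in turn. The edgeR adjusted p was 0.0579 without Perthes rabbit 3, 0.0829 without control rabbit 1 and 0.0732 without control rabbit 2, within 0.000216 to 0.120 over all alternatives.

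PTGER3 (gene 100009389) encodes EP3, which mostly lowers cyclic AMP. Its level was 7.46, 15.9, 11.9, 5.28 and 5.11 CPM in Perthes rabbits and 15.5, 31.5 and 24.6 CPM in controls. Perthes rabbit 2 was just above control rabbit 1, and the other Perthes rabbits were below every control. The log2 fold change was -1.39 (SE 0.40, edgeR adjusted p = 0.0485), and the exact permutation p was 0.0714. The call was kept in 1 of 8 fits that left out a rabbit, the fit without Perthes rabbit 2, with an edgeR adjusted p of 0.0156. Leaving out Perthes rabbits 1, 3, 4 or 5 gave edgeR adjusted p-values of 0.0866, 0.0736, 0.0665 and 0.0967. Leaving out control rabbits 1, 2 or 3 gave edgeR adjusted p-values of 0.0774, 0.179 and 0.0929. Over all alternatives the adjusted p ran from 0.00733, by DESeq2, to 0.179.

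PTGER4 (gene 100009081) encodes EP4, the other prostaglandin E receptor that raises cyclic AMP. It was at 38.6, 38.9, 32.8, 20.6 and 35.4 CPM in Perthes rabbits and 56.1, 36.8 and 29.8 CPM in controls, and 4 of the 5 Perthes values lay within the control range. With these values the log2 fold change was -0.30 (SE 0.26, edgeR adjusted p = 0.461). It was -0.0014 without control rabbit 1 (edgeR adjusted p = 0.998) and -0.48 without control rabbit 3 (edgeR adjusted p = 0.276).

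PTGIR (gene 100355165), the prostacyclin receptor IP, was at 6.38, 10.3, 12.4, 8.70 and 5.00 CPM in Perthes rabbits and 24.4, 11.8 and 9.58 CPM in controls. Control rabbit 1 stood well above the rest, and Perthes rabbits 2 and 3 were above control rabbit 3. For PTGIR the log2 fold change was -0.84 (SE 0.37, edgeR adjusted p = 0.156), and -0.32 (edgeR adjusted p = 0.598) without control rabbit 1.

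Among pairs of members, TBXAS1 and PTGER4 followed each other with an r of 0.930 over the 8 libraries (0.964 within groups), both highest in control rabbit 1 and lowest in Perthes rabbit 4. PTGER2 and PTGER3 had an r of 0.890 (0.686 within groups), and Perthes rabbit 2 was the highest Perthes library for both. PTGES ran opposite to TBXAS1, with an r of -0.85 (-0.75 within groups), and to PTGER4, with an r of -0.83 (-0.86 within groups).

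The genes most like each member over the 8 libraries were taken by the highest Pearson r of log2 CPM, as a description of these libraries. For PTGS2 they were BMPR1B, KCNJ15 and IER3, with r from 0.960 to 0.961. For PTGES they were CA9, SDC4 and CEMIP2. CA9, a carbonic anhydrase well known to be induced by low oxygen, had an r of 0.987 and stood at 12.0, 15.2, 12.8, 81.3 and 35.3 CPM in Perthes rabbits and 3.00, 4.55 and 12.6 CPM in controls, with an edgeR adjusted p of 0.0896. For PTGER2 they were PCED1B, ZNF398 and PRKCB, with r from 0.983 to 0.986. PRKCB, a protein kinase C of blood cells and other tissues, stood at 10.2 to 30.6 CPM in Perthes rabbits and 52.9 to 87.9 CPM in controls (edgeR adjusted p = 0.0128). For PTGER3 they were SLC24A2, ESR1 and RIC3, and ESR1, the estrogen receptor, had an r of 0.987. For TBXAS1 they were RTN3, PAG1 and WAS, and for PTGER4 they were CNRIP1, SYK and RASSF2. WAS and SYK are best known from blood cells. For PTGS1 they were SYCE3, EPHB6 and INSR, for PTGIR they were SLC16A13, EXOSC6 and RAD51B, and for HPGD they were HSPA9, SNAPC1 and STK38L.

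Of 12 other enzymes that make or break down prostanoids, 7 were found and 6 tested, with 1 higher, 1 lower and a median log2 fold change of 0.19. Counts called in this list and those below stand beside 6.21% of all genes called higher and 8.86% called lower by edgeR. AKR1B1, an aldose reductase that can also make prostaglandin F, was at 118, 50.8, 75.1, 53.7 and 196 CPM in Perthes rabbits and 24.3, 28.1 and 35.7 CPM in controls. Every Perthes library was above every control, and the log2 fold change was 1.75 (SE 0.47, edgeR adjusted p = 0.0371). PTGR1, which reduces breakdown products of prostaglandins and leukotriene B, was lower by a log2 fold change of -1.70 (SE 0.41, edgeR adjusted p = 0.0272). PTGR1 had estimated counts that were not whole in all 8 libraries, so it may share reads with other genes and its value is uncertain. AKR1B1 lost its call without Perthes rabbits 1 or 3 (edgeR adjusted p = 0.0633 and 0.0619) and without control rabbits 1, 2 or 3 (0.136, 0.125 and 0.0640). PTGR1 lost it without Perthes rabbits 1, 3 or 5 (edgeR adjusted p = 0.0503, 0.0562 and 0.0635) and without control rabbits 1 or 2 (0.0753 and 0.106). The synthases PTGES2 and PTGES3 had log2 fold changes of 0.28 and 0.11 and the reductase PTGR2 0.62, none called by edgeR or DESeq2, and PTGES3 is uncertain for the same reason as PTGR1. CBR1 and HPGDS complete the list and were named after their values were seen. CBR1, a carbonyl reductase that acts on prostaglandin E among other substrates, was at 0.0675 to 1.87 CPM in Perthes rabbits and 2.06 to 5.57 CPM in controls, with groups that did not overlap and counts that were not whole. Its log2 fold change of -2.78 (SE 0.83) had an edgeR adjusted p of 0.0526. It was -4.03 without Perthes rabbit 2 (edgeR adjusted p = 0.00322) and -2.42 without control rabbit 2 (edgeR adjusted p = 0.170). DESeq2 called it lower (adjusted p = 0.00630), which made 1 higher and 2 lower by that tool. HPGDS, the prostaglandin D synthase of blood cells, had 0 to 1 counts in Perthes rabbits and 2 to 3 in controls, too few for a fold change.

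Of 10 other receptors and carriers, 8 were found and tested, with 2 higher, 2 lower and a median log2 fold change of 0.27. PTGFR, the receptor for prostaglandin F, was at 29.3, 18.7, 17.6, 13.6 and 12.1 CPM in Perthes rabbits and 3.11, 3.46 and 7.12 CPM in controls. Its groups were apart, and the log2 fold change was 2.00 (SE 0.39, edgeR adjusted p = 0.0152). PTGFRN, a membrane protein known as a negative regulator of that receptor, was higher in every Perthes library, with a log2 fold change of 1.39 (SE 0.25, edgeR adjusted p = 0.0134). PTGDR, a prostaglandin D receptor, was at 0.0675 to 0.800 CPM in Perthes rabbits and 0.998 to 6.86 CPM in controls (log2 fold change -3.17, SE 0.78, edgeR adjusted p = 0.0284). ABCC4, an exporter that carries prostaglandins out of cells, was at 44.0 to 79.6 CPM in Perthes rabbits (mean 53.2, SD 15.1, n = 5) and 101 to 116 CPM in controls (mean 106, SD 8.29, n = 3), with an edgeR adjusted p of 0.0195. Without control rabbit 1 the edgeR adjusted p was 0.0663 for PTGFR, 0.0514 for PTGFRN, 0.151 for PTGDR and 0.0642 for ABCC4, and the log2 fold change of PTGDR was -1.98, control rabbit 1 being the one at 6.86 CPM. Without control rabbit 2 it was 0.0672, 0.0596, 0.0640 and 0.0812 in the same order. PTGDR and ABCC4 also lost their calls without Perthes rabbit 3 (edgeR adjusted p = 0.0630 and 0.0521) and without Perthes rabbit 5 (0.0693 and 0.0584). The uptake carriers SLCO2A1 and SLCO3A1 had log2 fold changes of 0.86 and 0.76 and the nuclear receptor PPARG -0.22, and edgeR called none of them. For SLCO3A1 the groups did not overlap and DESeq2 called it higher (adjusted p = 0.0144, edgeR adjusted p = 0.0540), so that DESeq2 called 3 genes of the list higher and 2 lower. Without Perthes rabbit 2 edgeR called SLCO2A1 (adjusted p = 0.0325), and its edgeR adjusted p was 0.105 to 0.315 when another rabbit was left out.

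**Figure D2:**
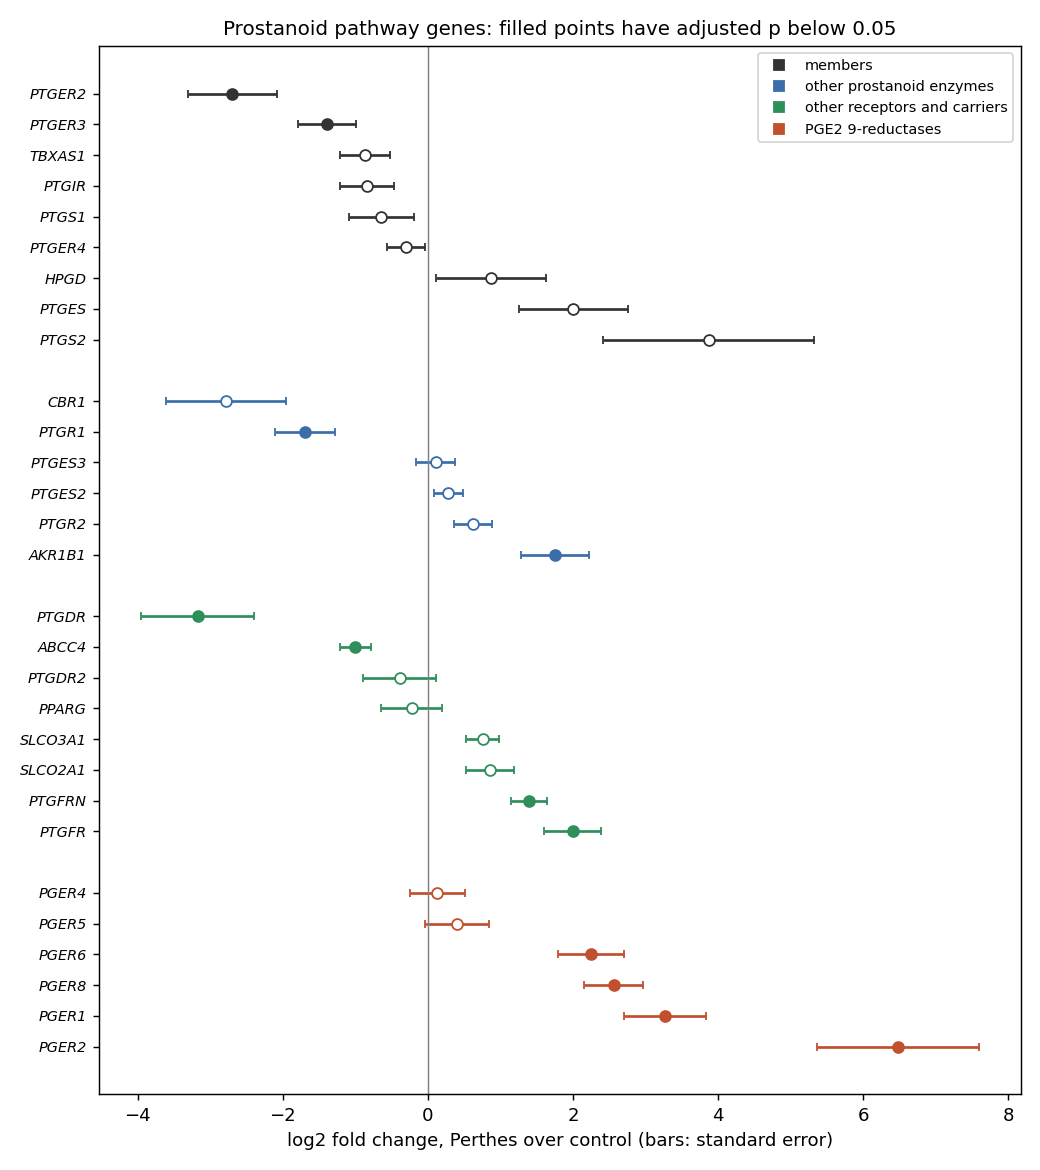
Log2 fold change of each tested prostanoid gene, Perthes over control, with its standard error as a bar, for the 9 members, the other enzymes, the other receptors and carriers, and the rabbit prostaglandin E 9-reductases, a group chosen after its values were seen. Filled points were called by edgeR. PTGER2 and PTGER3 lie at -2.69 and -1.39, and PTGS2 has the widest bar of the members, with an SE of 1.45.

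Of 20 lipases, acyl-transferring enzymes and other genes linked to the release of arachidonic acid from lipids, 18 were tested, with 2 higher, 2 lower and a median log2 fold change of -0.03. The higher genes were the lysosomal phospholipase PLA2G15 (1.75, SE 0.38, edgeR adjusted p = 0.0203) and PLA2G7 (1.42, SE 0.39, edgeR adjusted p = 0.0408), a secreted enzyme that breaks down platelet-activating factor. The lower genes were DAGLA (-1.01, SE 0.17, edgeR adjusted p = 0.0132), a diacylglycerol lipase, and LPCAT3 (-1.11, SE 0.18, edgeR adjusted p = 0.0123), which puts arachidonic acid into phospholipids. The most abundant genes of the list that edgeR did not call were ANXA1 (-1.07, edgeR adjusted p = 0.0629), ACSL4 (1.02, edgeR adjusted p = 0.0798) and ACSL1 (-2.20, edgeR adjusted p = 0.0524). DESeq2 called all of these, with adjusted p-values of 0.0194, 0.0282 and 0.00382, and in the whole list it called 3 genes higher and 4 lower. Without Perthes rabbit 2 edgeR called ACSL4 (adjusted p = 0.0335) and ACSL1 (-3.10, adjusted p = 0.00165). Other fits were weaker: without control rabbit 1 ANXA1 was at -0.48 (edgeR adjusted p = 0.263) and ACSL4 at 0.79 (edgeR adjusted p = 0.236), and without control rabbit 2 ACSL1 was at -1.77 (edgeR adjusted p = 0.183). Leaving out control rabbit 1 gave edgeR adjusted p-values of 0.0829 for PLA2G15, 0.141 for PLA2G7 and 0.0504 for LPCAT3, and kept DAGLA at 0.0480. Without control rabbit 2 the edgeR adjusted p-values were 0.0820 for PLA2G15, 0.124 for PLA2G7 and 0.0519 for both LPCAT3 and DAGLA. Further, PLA2G7 lost its call without Perthes rabbits 1, 3 or 5 or control rabbit 3, with an edgeR adjusted p of 0.0523 to 0.0825. PLA2G4A, the cytosolic phospholipase that feeds cyclooxygenase, was looked at after its values were seen. It was at 35.2, 35.0, 32.4, 104 and 63.5 CPM in Perthes rabbits and 45.7, 39.5 and 43.2 CPM in controls, so that it was highest in the same rabbits 4 and 5 as PTGS2 and PTGES (log2 fold change 0.34, edgeR adjusted p = 0.587). The direction of PLA2G4A turned without Perthes rabbit 4 (-0.04, edgeR adjusted p = 0.918) and with a replicate block (-0.32, edgeR adjusted p = 0.443).

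Of 18 genes known to rise with cyclic AMP, the messenger of EP2, EP4 and IP, 14 were found and 13 tested. CREM, a regulator that cyclic AMP induces, was higher (1.30, SE 0.22, edgeR adjusted p = 0.0133), and the list's median was 0.05. That median was -0.17 without Perthes rabbit 4 and 0.43 without control rabbit 3. On the higher side 2 genes had an unadjusted p under 0.05 and DESeq2 called the same number, CREM and NR4A3. NR4A3, an early response regulator named here after its values were seen, had a log2 fold change of 2.27 (SE 0.82, edgeR adjusted p = 0.0931, DESeq2 adjusted p = 0.0109). None was called lower by edgeR, 2 had an unadjusted p under 0.05 on that side, and DESeq2 called 1. PCK1, also named after its values were seen, had a log2 fold change of -3.91 (SE 1.27, edgeR adjusted p = 0.0675, DESeq2 adjusted p = 0.104). Without Perthes rabbit 2 edgeR called PCK1 lower (-6.13, adjusted p = 0.0110), and without control rabbit 2 it was at -2.51 (edgeR adjusted p = 0.309). FOS and DUSP1, the most abundant of the list, had log2 fold changes of 0.20 and -0.26 and were called by neither tool. RGS2, next in abundance, had a log2 fold change of -1.27 (edgeR adjusted p = 0.0522) and was the gene that DESeq2 called lower (adjusted p = 0.0146). Without Perthes rabbit 4 edgeR called RGS2 too (adjusted p = 0.0252), and without control rabbit 3 it called both RGS2 and NR4A3 (adjusted p = 0.0328 and 0.0272), the latter with a log2 fold change of 3.86. Without control rabbit 1 RGS2 was at -0.70 (edgeR adjusted p = 0.230), and without control rabbit 2 NR4A3 was at 1.85 (edgeR adjusted p = 0.250). CREM lost its call without control rabbits 1 and 2, with edgeR adjusted p-values of 0.0514 and 0.0533.

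Of 9 cytokines and regulators known to induce PTGS2, 7 were tested. CEBPB (1.35, SE 0.29, edgeR adjusted p = 0.0202) and HIF1A (1.38, SE 0.39, edgeR adjusted p = 0.0455) were higher, and the median was -0.01. None was lower by edgeR or DESeq2, with 0 at an unadjusted p under 0.05 on that side. EGR1, NFKB1 and NFKBIA, the most abundant of the rest, had log2 fold changes of -0.20, -0.01 and -0.11. HIF1A, the oxygen-sensitive subunit of the hypoxia factor, was at 544, 303, 234, 532 and 411 CPM in Perthes rabbits and 89.0, 144 and 234 CPM in controls. Its call was kept in 2 of 8 fits that left out a rabbit, those without Perthes rabbit 2 and without control rabbit 3, and the largest edgeR adjusted p was 0.149, without control rabbit 2. CEBPB lost its call without Perthes rabbit 3 (edgeR adjusted p = 0.0509), control rabbit 2 (0.0837) and control rabbit 3 (0.0549). IL1B, the cytokine that classically induces PTGS2, was chosen after its values were seen. It was at 1.76, 5.32, 2.39, 41.4 and 3.23 CPM in Perthes rabbits and 31.8, 15.7 and 10.6 CPM in controls, and it had a log2 fold change of -0.84 (SE 0.99, edgeR adjusted p = 0.595). Without Perthes rabbit 4 it was -2.61, and IL1B was then called lower (edgeR adjusted p = 0.0130), while it was -0.28 without control rabbit 1 (edgeR adjusted p = 0.906). Perthes rabbit 4, with the most PTGS2, also held the most IL1B, and the other Perthes rabbits were below every control.

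The tissue held the markers of its label. COL1A1 and the cartilage collagen COL2A1 were abundant in every library, at 44666 to 143897 and 29008 to 116594 CPM, and markers of bone-forming cells were present in all. Markers of marrow cells were present too, and edgeR called some of them between the groups, but no T cell or adipocyte marker.

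PTGER2, PTGER3 and PTGDR were lower in the group in which some of the markers of blood-forming cells were also called lower. Of the 7 neutrophil genes tested, 3 were called lower by edgeR and 7 by DESeq2, CXCR2 by both tools from counts that were not whole. This and the counts called below stand beside 8.86% of all genes called lower by edgeR and 1916 of 15305 by DESeq2. The median log2 fold change of the 7 genes was -3.69, or -2.75 without control rabbit 1. Their summed level was 20.9, 1393, 545, 1298 and 152 CPM in Perthes rabbits 1 to 5 and 17288, 4986 and 4585 CPM in controls, with LTF the most abundant. For the 6 erythroid genes, 1 called lower by edgeR and 4 by DESeq2, the sums were 28.5, 1852, 336, 373 and 66.7 CPM against 4645, 4507 and 3909 CPM, with SLC4A1 the most abundant. For the 6 megakaryocyte genes, 2 called lower by edgeR and 3 by DESeq2, they were 138, 582, 307, 288 and 339 CPM against 903, 655 and 546 CPM, with ITGB3 the most abundant. ITGB3 made up most of these sums in Perthes rabbits and its groups overlapped (log2 fold change -0.54, edgeR adjusted p = 0.318). The other 5 had groups that did not overlap, beside 25.2% of all genes, and log2 fold changes of -2.71 to -3.64. GP9 and GP1BA, named after their values were seen, were at 0 in Perthes rabbit 1. The median of the 6 was -3.07, and -4.27 without Perthes rabbit 2. For the 4 mast cell genes, 1 called lower by edgeR and 4 by DESeq2, the sums were 4.83, 52.9, 19.1, 20.7 and 8.92 CPM against 179, 93.1 and 65.9 CPM, with HDC the most abundant. Perthes rabbit 2 was the highest Perthes library in all 4 sums and also in PTGER2 and PTGER3, but not in PTGDR, which was highest in Perthes rabbit 4 (0.800 CPM, against 0.337 CPM in rabbit 2). Rabbit 2 was also the highest Perthes library in the B cell (24.4 CPM), adipocyte (698 CPM) and fibroblast and smooth muscle (157563 CPM) sums. It was not the highest in the macrophage, osteoclast, chondrocyte, endothelial, bone-forming, T cell or skeletal muscle sums. Fewer cells of a type and less RNA per cell cannot be told apart in bulk tissue, and the part of any of these cell types in the lower receptor levels was not tested.

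**Figure D3:**
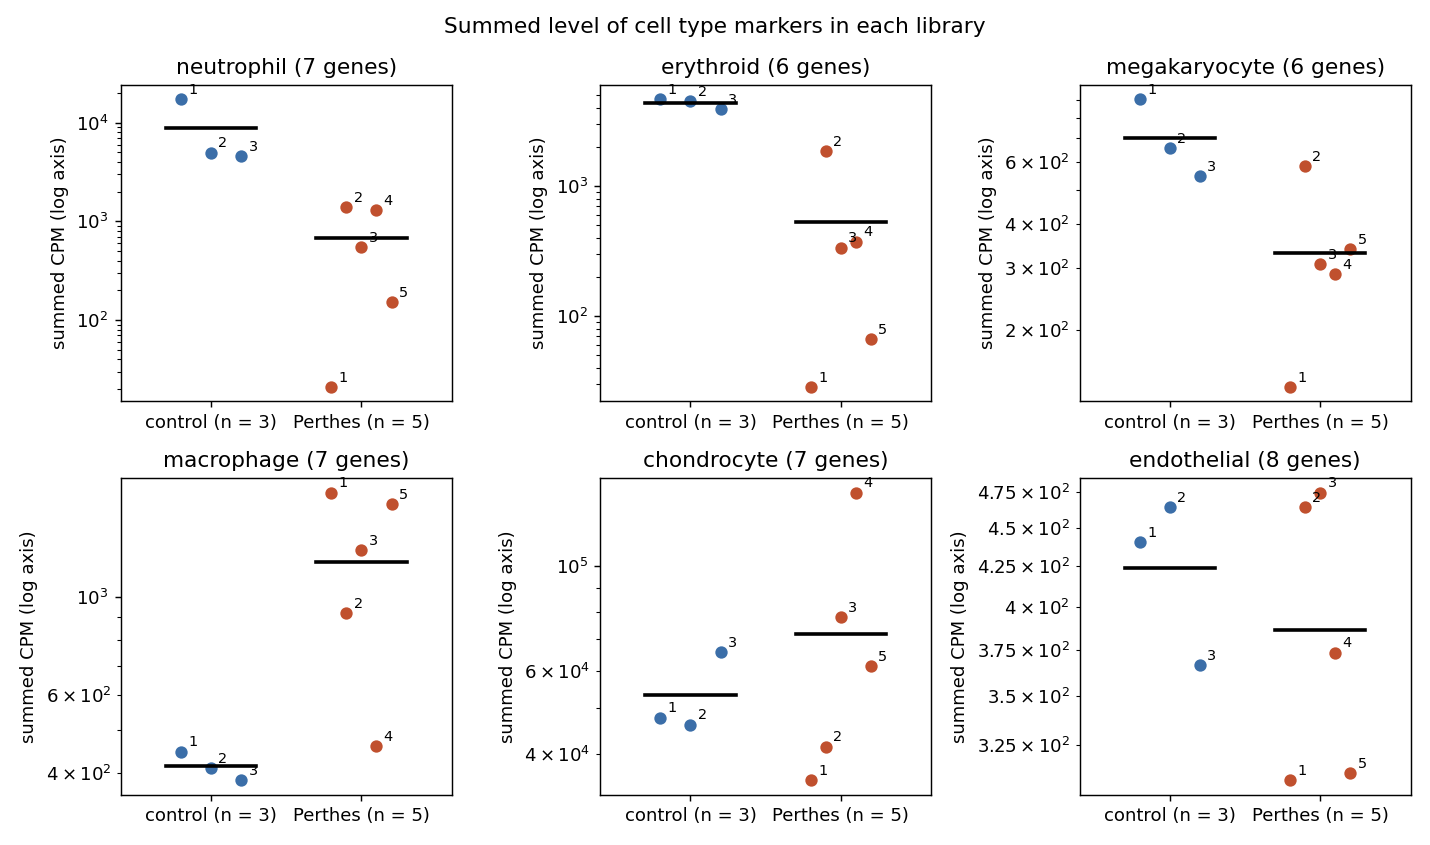
Summed CPM of the marker genes of 6 cell types in each library, on a log axis. Points are libraries, numbered by rabbit, and lines are group means. Neutrophil, erythroid and macrophage sums are apart between the groups, the last narrowly (460 against 447 CPM), and Perthes rabbit 4 has the lowest macrophage sum and the highest chondrocyte sum of its group.

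PTGS2 and PTGES were highest in Perthes rabbit 4, which also differed from the other Perthes rabbits in its cell markers. Of the 7 macrophage genes, 4 were called higher by edgeR and 5 by DESeq2, beside 6.21% of all genes by edgeR and 1720 of 15305 by DESeq2. The median log2 fold change of the 7 genes was 1.44. Their summed level was 1724, 920, 1277, 460 and 1622 CPM in Perthes rabbits 1 to 5 and 447, 410 and 385 CPM in controls. CSF1R was the most abundant. Of the 7 chondrocyte genes none was called by edgeR or DESeq2, with 2 at an unadjusted p under 0.05, and the sum was 35221, 41508, 77868, 142860 and 61335 CPM against 47785, 46147 and 65734 CPM, with COL2A1 the most abundant. Perthes rabbit 4 had the least macrophage and the most chondrocyte RNA of the Perthes group. It also had the lowest adipocyte (62.5 CPM), osteoclast (2837 CPM) and T cell (2.58 CPM) sums and the highest bone-forming sum (3048 CPM) of that group. The part of any of these in the PTGS2 and PTGES levels was not tested.

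Among the remaining marker lists, 2 of 7 osteoclast genes (CTSK and DCSTAMP, median log2 fold change 1.42) and 4 of 8 fibroblast and smooth muscle genes (COL3A1, POSTN, ACTA2 and TAGLN, median 1.17) were called higher by edgeR, and 4 of each list by DESeq2, TAGLN from counts that were not whole. Of all 15305 genes, edgeR called 6.21% higher and DESeq2 called 1720 higher. CTSK and COL1A1 were the most abundant of these lists. Of 4 B cell genes tested, MS4A1 was called lower by edgeR and 2 genes by DESeq2, and CD79B was the most abundant. By edgeR no gene was called among 4 T cell, 8 endothelial, 8 bone-forming, 4 adipocyte and 2 skeletal muscle genes tested, whose most abundant genes were CD5, PECAM1, IBSP, ADIPOQ and ACTA1. DESeq2 called 1 endothelial and 1 bone-forming gene higher, and at an unadjusted p under 0.05 there were 1 endothelial, 2 bone-forming and 1 skeletal muscle gene. Without control rabbit 1 TAGLN alone of all these marker genes kept its call (edgeR adjusted p = 0.0418). No marker gene was at 0 in all 8 libraries.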

How the data were processed

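The authors deposited estimated counts per gene, unnormalized, for 5 Perthes and 3 control libraries. The submitters' processing notes name HISAT2 2.0.4, RSEM 1.1.17 and HTSeq 1.99.2, and about 10.0 to 10.7% of the values of a library are not whole. Another 8 columns repeat the columns used and were left out, and the small RNA table was not used here. The third control carries in its title the replicate number of the second control, and was taken by its code as a separate rabbit. The authors report 5 Perthes and 3 control rabbits, so each library was taken as a separate animal. On that basis p-values measure the spread between these 8 rabbits only.

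Counts were rounded, scaled by TMM, filtered with filterByExpr (minimum count 10) and tested with edgeR 4.0.16 (limma 3.58.1) run under R 4.3.3, and p-values were adjusted by Benjamini-Hochberg across all 15305 genes that passed. The SE is the absolute log2 fold change over the square root of F. Log2 CPM used a prior count of 2, and exact two-sided permutation tests over 56 divisions of the rabbits used log2(CPM + 0.5). Counts of 3 or fewer in every library gave no fold change. The common biological coefficient of variation was 36.1%, and counting error added to it where a library held few counts, as for HPGD, PTGDR, HPGDS, PTGER2 in Perthes rabbits, CBR1 and PGER2 in controls. The procedure was tested on simulated data. Alternatives were DESeq2 1.42.0, its size factors, library totals, other count filters, a log2 fold change beyond 1, a replicate block and leaving out rabbits.

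Members and lists were chosen with earlier results of these data known. The genes named were all members, in each other list those called and up to 3 more with the highest mean CPM (others are said to be named after their values were seen), the 3 genes most like each member, and the most abundant marker of a cell type. Gene positions were not used, because the RefSeq gene table used for names (assembly mOryCun1.1) is of another assembly than the authors'.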

Additional observations from a re-analysis of the deposited data

Results flagged for a closer look

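PTGS2 in Perthes rabbit 4, at 297 CPM, stood far from the other Perthes libraries. Its gap to the next library, Perthes rabbit 5 at 57.8 CPM, was 0.819 of the group's range, above the critical value of 0.71 in Dixon's test for 5 samples. PTGES in the same rabbit, at 29.9 CPM, had a gap of 0.769 of the range to the next library, again Perthes rabbit 5, at 10.1 CPM. These were 2 of 9 members tested in this way, and chance marks about 1 in 20 groups if levels follow a normal distribution. On log2 CPM, a scale added after these values were seen, the gaps of PTGS2 and PTGES were 0.399 and 0.553 of the range, below the critical value, and that of PTGER4, lowest in Perthes rabbit 4, was above it at 0.730.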

How the results depend on the processing

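No member changed direction under any alternative run. Of the members' log2 fold changes under them, 15 of PTGER2 and PTGER3 fell short of the threshold, and those of PTGS2 and PTGES by DESeq2 passed it. Asking for a log2 fold change beyond 1 used the same fit, so it could only remove calls, and it removed neither PTGER2 nor PTGER3. DESeq2 called 2 members higher (PTGS2 and PTGES) in place of 0, and 1720 genes of the table higher in place of 951 and 1916 lower in place of 1356, and the cause was not tested. Without a low-count filter 1 member was called lower (PTGER3 was lost, adjusted p = 0.0523), with more genes tested. With at least 10 counts in every library 1 member was called lower, since PTGER2 was removed by the filter. With the replicate block, edgeR called 0 members higher, 0 lower and 0 genes of the table in either direction, with 2 members and 3152 genes at an unadjusted p under 0.05. The smallest edgeR adjusted p of any gene with the block was 0.0573, so no gene could keep a call there. Whether replicate numbers pair the samples cannot be decided from 3 same-numbered pairs. Their correlation of deviations averaged -0.13 (-0.317 to 0.161), and that of 12 other pairs averaged 0.0319 (-0.314 to 0.435). Without Perthes rabbits 4 and 5, an alternative chosen after seeing the data, edgeR called 0 members, with 2 at an unadjusted p under 0.05, and 492 genes higher and 319 lower, with fewer samples. When each rabbit was left out in turn, members called lower ran from 0 to 2, all genes called higher from 0 to 1267 and all genes called lower from 0 to 1628. The 0 in both directions was the edgeR fit without control rabbit 2, with 3722 genes at an unadjusted p under 0.05. HPGD was not tested with at least 10 counts in every library or without rabbits 4 and 5.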

Other observations

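The rabbit count table also lists 9 genes described as prostaglandin E 9-reductases, aldo-keto reductases that can turn prostaglandin E into prostaglandin F. They were chosen after their values were seen, and 6 of the 9 had estimated counts that were not whole, so members of the family may share reads and their values are uncertain. Of 6 tested, 4 were called higher in Perthes femoral heads, 0 lower by edgeR or DESeq2, and the median log2 fold change was 2.40. Over all genes tested, edgeR called 6.21% higher and the median was 0.02. The summed level of all 9 changed less and overlapped between the groups, at 83.1, 64.9, 59.5, 45.9 and 86.5 CPM in Perthes rabbits and 34.3, 53.9 and 26.9 CPM in controls. PGER2, whose symbol resembles that of the receptor PTGER2 but names an enzyme, had 92, 80, 133, 361 and 399 counts in Perthes rabbits and 0, 0 and 7 counts in controls. Its fitted log2 fold change of 6.48 (SE 1.11, edgeR adjusted p = 0.0133) is given beside the fact that control rabbit 3 was the only control with any count. Without that rabbit every control is at 0, and no fold change is given. PGER1 (3.27, SE 0.56, edgeR adjusted p = 0.0133), PGER8 (2.56, SE 0.40, edgeR adjusted p = 0.0121) and PGER6 (2.25, SE 0.45, edgeR adjusted p = 0.0159) were higher in every Perthes library than in any control. PGER5 and PGER4, the most abundant of the family, were not called, with log2 fold changes of 0.40 and 0.13. All 4 calls were lost without control rabbit 2, with edgeR adjusted p-values of 0.0519 to 0.0610, where no gene of the table was called and the smallest adjusted p was 0.0519. Those of PGER1, PGER2 and PGER6 were also lost without control rabbit 1, with edgeR adjusted p-values of 0.0514 to 0.0600.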
